A study of Mus musculus with 8 samples.

Results

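The 4 single-nucleus RNA-seq libraries made from the primary visual cortex (V1) of mice whose astrocytes were targeted for loss of the glucocorticoid receptor (GR) are described here, 2 from normally reared (NR) and 2 from dark-reared (DR) animals. They were chosen by their deposited genotype (GR-KO), which takes 4 of the 8 libraries and 46901 of the 102330 nuclei of the series. All animals were GRfl/fl, so that both alleles of Nr3c1, the gene of the receptor, carry loxP sites, and all were taken at postnatal day 21. At birth GR-KO animals had received an adeno-associated virus, AAV2/5-GfaABC1D-Cre, that also encodes the membrane-bound reporter EGFP-CAAX and holds the elements 4x6T and WPRE, and the GR-Con animals used for comparison had received the same virus with ΔCre, an inactive recombinase. The deposited cell table gives 1 male and 1 female library for each combination of genotype and rearing, and values of a pair are written below with the male library first. UMI counts were summed per library and deposited cell type, and DR was compared with NR within each type. The counts are of nuclei, not of whole cells, and in such sums fewer nuclei that express a gene cannot be told apart from less RNA per nucleus.

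GR is a ligand-activated transcription factor of the nuclear receptor family, which binds corticosterone in mice, enters the nucleus and changes transcription of genes such as Fkbp5, Sgk1 and Zbtb16. Rearing in the dark withholds visual experience from V1 during the weeks in which its circuits mature, and light after darkness is known to induce immediate early transcription factors (Fos, Egr1, Npas4) and then secreted effectors (Bdnf, Nptx2, Scg2) in its neurons. Layer 4 (L4) receives most thalamic input, L2/3 carries cortical associative projections, L5PT cells project to subcortical targets and L6CT cells project back to the thalamus.

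The GfaABC1D promoter aims Cre at astrocytes, not at neurons, and the methods of the study state that GFP-negative nuclei were sorted. What follows in neurons is therefore rearing in animals whose neurons were not the target of the vector. Cre UMIs were nevertheless present outside astrocytes in these libraries. L4 nuclei held 361 and 80 Cre UMIs in NR and 39 and 62 in DR, L2/3 nuclei 262 and 55 in NR and 47 and 94 in DR, and astrocytes held 86 and 48 in NR and 57 and 43 in DR. These are sums over types of unlike size. UMIs of tested genes came to 49977606 and 67166743 in NR and 29016190 and 44018505 in DR L4. In astrocytes they came to 8415269 and 11556000 in NR and 5451453 and 7172590 in DR. Relative to such totals, Cre UMIs were more frequent in astrocytes than in L4 or L2/3 in each GR-KO library. Nr3c1 itself was at 272 and 262 CPM (UMI counts scaled to a library of equal size) in NR GR-KO astrocytes and 276 and 285 CPM in DR, against 232 and 228 CPM in NR GR-Con and 268 and 205 CPM in DR GR-Con. These levels were not lower in GR-KO. The exon that is deleted is not stated for these mice, and reads from elsewhere in the gene would not show the loss, so this transcript neither checks nor contradicts the genotype. Between DR and NR GR-KO astrocytes the log2 fold change of Nr3c1 was 0.07 (SE 0.0842, adjusted p 0.753).

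The libraries differed in depth along with rearing. The median nucleus held 22827.5 and 29223 UMIs in NR GR-KO and 14928.5 and 14861 UMIs in DR GR-KO, and library totals were 280910168 and 263273814 against 168632129 and 202320161 UMIs. In GR-Con the medians were 17759.5 and 15884 in NR and 16968 and 20161 in DR. In GR-KO depth and rearing cannot be told apart. Among the GR-KO libraries the NR male library stood apart in other ways. Its shallowest nucleus held 7024 UMIs where those of the other GR-KO libraries held 1407 to 1460, it held 4 microglia where the others held 714 to 948, and Cre UMIs were in 15.6% of its L4 nuclei where the others had them in 2.18% to 3.76%. In GR-Con the NR male and DR female libraries likewise had shallowest nuclei of 4635 and 5704 UMIs and held 2 and 4 microglia. The NR female and DR male GR-Con libraries had shallowest nuclei of 1402 and 1409 UMIs and held 573 and 885 microglia. L5PT neurons made up 3.75% and 0.620% of nuclei in the NR libraries and 3.37% and 3.08% in the DR libraries. Of 46659 distinct barcodes of the GR-KO libraries 240 (0.514%) occurred in more than 1 library. Of 80 markers of the 20 cell types, 69 were highest in the type they mark. The exceptions included the 3 markers of L4 (Rorb, Rspo1 and Whrn were higher in a glial type) and the 3 markers of L6IT, so those names rest on the deposited annotation.

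The first question was in which cell types dark rearing of GR-KO animals came with different transcript levels. Of the 20 types, 18 had at least 10 nuclei in each library and were tested with the quasi-likelihood test of edgeR, with genes called at an adjusted p under 0.05. Calls were found in L4 (218 of 17437 genes, 1.25%), L6CT (83 of 16023, 0.518%), L6IT (22 of 15241, 0.144%), Pvalb (39 of 13997, 0.279%) and Lamp5 interneurons (32 of 11302, 0.283%), astrocytes (259 of 14490, 1.79%), oligodendrocyte precursor cells (OPCs; 268 of 11477, 2.34%), oligodendrocytes (82 of 13572, 0.604%) and vascular leptomeningeal cells (VLMCs; 915 of 6109, 15%). L5NP, Sst and Vip cells had 1 call each (0.00877%, 0.00766% and 0.00784%), of the same gene, Gm47283, which is described with the comparison of genotypes. In L2/3, L5IT, L5PT, L6b, endothelial cells and smooth muscle cells and pericytes this test called 0 genes. In the 4 neuron types among these, 4926, 1911, 1702 and 816 genes had an unadjusted p under 0.05, and in the 2 vascular types 359 and 363.

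The count in a type depended on the test. The likelihood ratio test of edgeR called 1561 genes in L2/3 (8.55%) and DESeq2 called 2100, where the quasi-likelihood test called 0 with a smallest adjusted p of 0.051. In L4 the same tests called 955 and 1062 genes, in L5IT 288 and 180, in L5PT 245 and 37, in L6CT 1112 and 812, in L6IT 851 and 519, and in L6b 31 and 1. In L5NP they called 78 and 19, in Sst 54 and 18, in Vip 47 and 4, in endothelial cells 34 and 0 and in smooth muscle cells and pericytes 62 and 0. An order of the layers by number of calls therefore cannot be read from these counts. Single libraries decided the counts as well. In L4 the quasi-likelihood test called 0 genes without either DR library, 1728 without the NR female and 1777 without the NR male library. Without the DR female, DR male, NR female and NR male library in turn, the counts were 2, 0, 777 and 1718 in L6CT, 3, 0, 1492 and 2616 in L6IT and 63, 0, 0 and 0 in L2/3. In each of these fits 1 group is a single library, which is assumed to vary like the other pair.

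**Figure D1:**
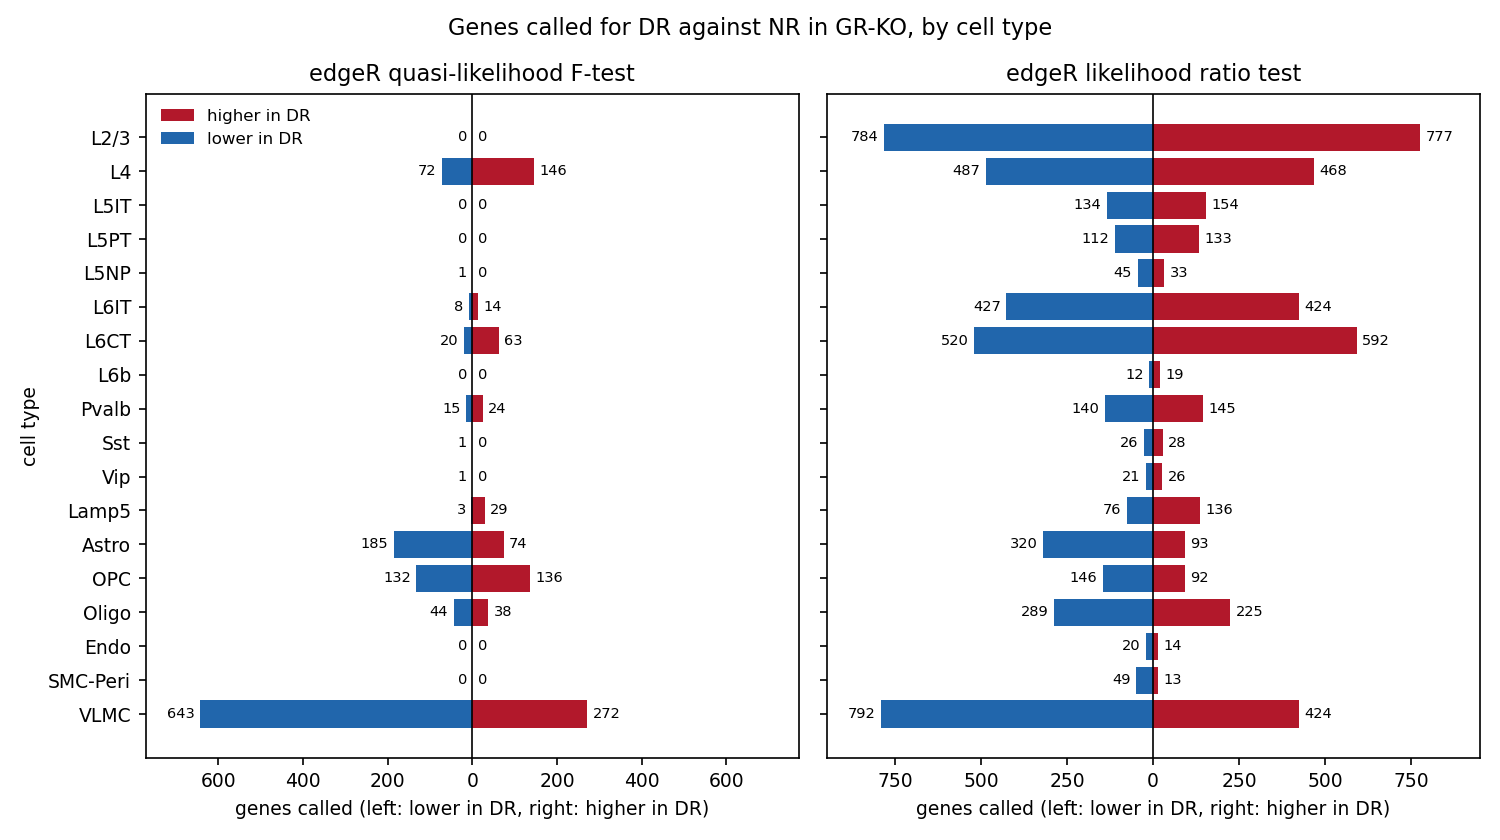
Number of genes called higher (right of 0) and lower (left of 0) in DR than in NR GR-KO animals, for each of the 18 cell types tested, by the quasi-likelihood test (left panel) and the likelihood ratio test (right panel) of edgeR, at an adjusted p under 0.05. The quasi-likelihood test called 0 genes in L2/3, where the likelihood ratio test called 777 higher and 784 lower, and VLMCs had the most calls by the quasi-likelihood test (272 higher and 643 lower).

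Over the 8 excitatory types the quasi-likelihood test made 324 calls among 117034 gene tests (0.277%), 223 higher (0.191%) and 101 lower (0.0863%) in DR. The likelihood ratio test called 2600 higher (2.22%) and 2521 lower (2.15%). DESeq2 called 3053 higher and 1677 lower, so the size of the excess of higher calls depended on the test. With sex as a term, which blocks the libraries into male and female pairs, the quasi-likelihood test made 4278 calls. Of the genes behind the 324 calls, 15 were called higher and 7 lower in at least 2 types, and 1 higher and 2 lower in at least 3. Described first are 5 genes per direction called in the most types, with ties broken by the mean size of the fold change. Genes of the Y chromosome, among them Gm47283, were left out. Higher in DR were Sema4a, a membrane-bound semaphorin, Ntf3, the neurotrophin that signals through TrkC, Adgra2, an adhesion G protein-coupled receptor, Matn2, which encodes the matrix protein matrilin-2, and Cemip, a hyaluronan-binding protein. Lower were Ciart, a repressor of the circadian clock, Serpinb8, a protease inhibitor, Abi3bp, a matrix protein, Arr3, an arrestin, and Gm21887, a predicted gene.

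Sema4a (chromosome 3, 88435959 to 88461182, coordinates here being those of GENCODE vM21 on GRCm38) rose in L4, L6IT and L6CT. In L6CT it was at 19.9 and 16.5 CPM in the NR libraries and 42.7 and 41.7 CPM in the DR libraries, with a log2 fold change of 1.21 (SE 0.112, adjusted p 0.0395). In L6IT it was at 24.9 and 22.4 CPM in the NR libraries and 43.3 and 42.5 CPM in the DR libraries (0.86, SE 0.0940, adjusted p 0.0468), and in L4 at 11.5 and 10.8 CPM in the NR libraries and 17.6 and 18.3 CPM in the DR libraries (0.69, SE 0.0908, adjusted p 0.0451). The pairs did not overlap in any of the 3 types. In GR-Con the log2 fold change of Sema4a was 1.32 in L6CT and -0.10 in L4.

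Ntf3 (chromosome 6, 126101412 to 126166910) had the largest fold changes of these 10 genes. In L6CT it was at 1.01 and 0.512 CPM in the NR libraries and 8.57 and 7.19 CPM in the DR libraries, a log2 fold change of 3.35 (SE 0.303, adjusted p 0.0395), and in L6IT at 0.446 and 0.150 CPM in the NR libraries and 4.34 and 4.34 CPM in the DR libraries (3.80, SE 0.409, adjusted p 0.0468). Both NR pairs were near or under 1 CPM, so the fold depends on few UMIs. In L2/3, where NR levels of Ntf3 were higher (17.7 and 12.1 CPM), the DR libraries were at 35.9 and 26.3 CPM and the quasi-likelihood test did not call it (1.06, adjusted p 0.0746), while the likelihood ratio test did (adjusted p 0.00272). In GR-Con, Ntf3 had log2 fold changes of 2.51 in L6CT (adjusted p 0.0845) and 1.47 in L2/3 (adjusted p 0.0109), in the same direction.

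Matn2 (chromosome 15, 34306677 to 34436273) rose in L6IT, from 43.9 and 33.4 to 109 and 114 CPM (1.52, SE 0.134, adjusted p 0.036), and in L6CT, from 8.41 and 6.99 to 23.9 and 21.7 CPM (1.57, adjusted p 0.0395). In L2/3 Matn2 was at 52.8 and 43.6 CPM in the NR libraries and 149 and 105 CPM in the DR libraries, and its adjusted p of 0.051 missed the threshold. Cemip (chromosome 7, 83932857 to 84086502) rose in L4 (12.5 and 15.4 CPM in the NR libraries and 43.0 and 31.5 CPM in the DR libraries, 1.42, SE 0.177, adjusted p 0.045). In L6CT Cemip went from 42.7 and 56.0 to 121 and 116 CPM (1.26, adjusted p 0.0425). Adgra2 (chromosome 8, 27085583 to 27123436) rose in L4 (1.94 and 2.28 to 5.61 and 4.73 CPM, 1.28, adjusted p 0.0451) and in L6CT (1.57 and 1.45 to 5.49 and 5.41 CPM, 1.85, adjusted p 0.0395), and it was also called in VLMCs (55.6 and 75.2 to 190.2 and 185 CPM, 1.48, adjusted p 0.0107).

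Of the genes lower in DR, Abi3bp (chromosome 16, 56477878 to 56690135) fell in L6CT from 39.4 and 38.5 CPM to 10.8 and 14.3 CPM (-1.63, SE 0.140, adjusted p 0.0395) and in L4 from 21.5 and 16.4 to 6.23 and 7.80 CPM (-1.42, adjusted p 0.0446). Serpinb8 (chromosome 1, 107590006 to 107610484) fell in L6CT (37.4 and 38.6 CPM in the NR libraries and 10.5 and 15.8 CPM in the DR libraries, -1.53, adjusted p 0.0495) and in L4 (-1.13, adjusted p 0.0433). Arr3 (chromosome X, 100605497 to 100618493), best known from cone photoreceptors, was low in both types where it was called. In L4 it was at 2.97 and 3.89 CPM in the NR libraries and 0.935 and 0.828 CPM in the DR libraries (-1.97, adjusted p 0.0396) and in L6CT at 1.68 and 1.51 CPM in the NR libraries and 0.241 and 0.165 CPM in the DR libraries (-2.96, adjusted p 0.0485). Gm21887 (chromosome X, 170009659 to 170019281) fell in L4, L6IT and L6CT (log2 fold changes of -1.52, -1.74 and -1.64), and differed between the 2 NR libraries of GR-Con. In L4 it was at 4.06 and 14.9 CPM in NR GR-Con and 2.999 and 8.30 CPM in DR GR-Con, pairs that overlapped, with the DR level below the NR level within each sex.

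Ciart (chromosome 3, 95878503 to 95882251) fell in L4, L6CT and astrocytes. It was at 13.2 and 13.4 CPM in the NR libraries and 6.86 and 7.40 CPM in the DR libraries in L4 (-0.90, SE 0.102, adjusted p 0.0396), at 10.7 and 12.4 CPM in the NR libraries and 4.91 and 4.83 CPM in the DR libraries in L6CT (-1.25, SE 0.135, adjusted p 0.0425) and at 14.9 and 14.6 CPM in the NR libraries and 6.66 and 7.14 CPM in the DR libraries in astrocytes (-1.09, adjusted p 0.016). Its log2 fold change was below 0 in each of the 8 excitatory types (-1.25 to -0.37) and each of the 4 interneuron types (-1.05 to -0.59), and in GR-Con below 0 in each of the 8 excitatory types. Other clock genes were not called in L4. Per1 in L4 was at 43.0 and 14.9 CPM in the NR libraries and 29.7 and 34.4 CPM in the DR libraries, Nr1d1 at 8.11 and 7.99 CPM in the NR libraries and 10.0 and 9.25 CPM in the DR libraries and Per3 at 47.4 and 54.3 CPM in the NR libraries and 43.8 and 50.5 CPM in the DR libraries (adjusted p 0.876, 0.235 and 0.595). For Per1 the NR pair spanned the DR pair. Of the 19 clock genes tested in L4 and in L6CT, Ciart was the 1 called, and the list's median log2 fold change was 0.20 and 0.07.

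**Figure D2:**
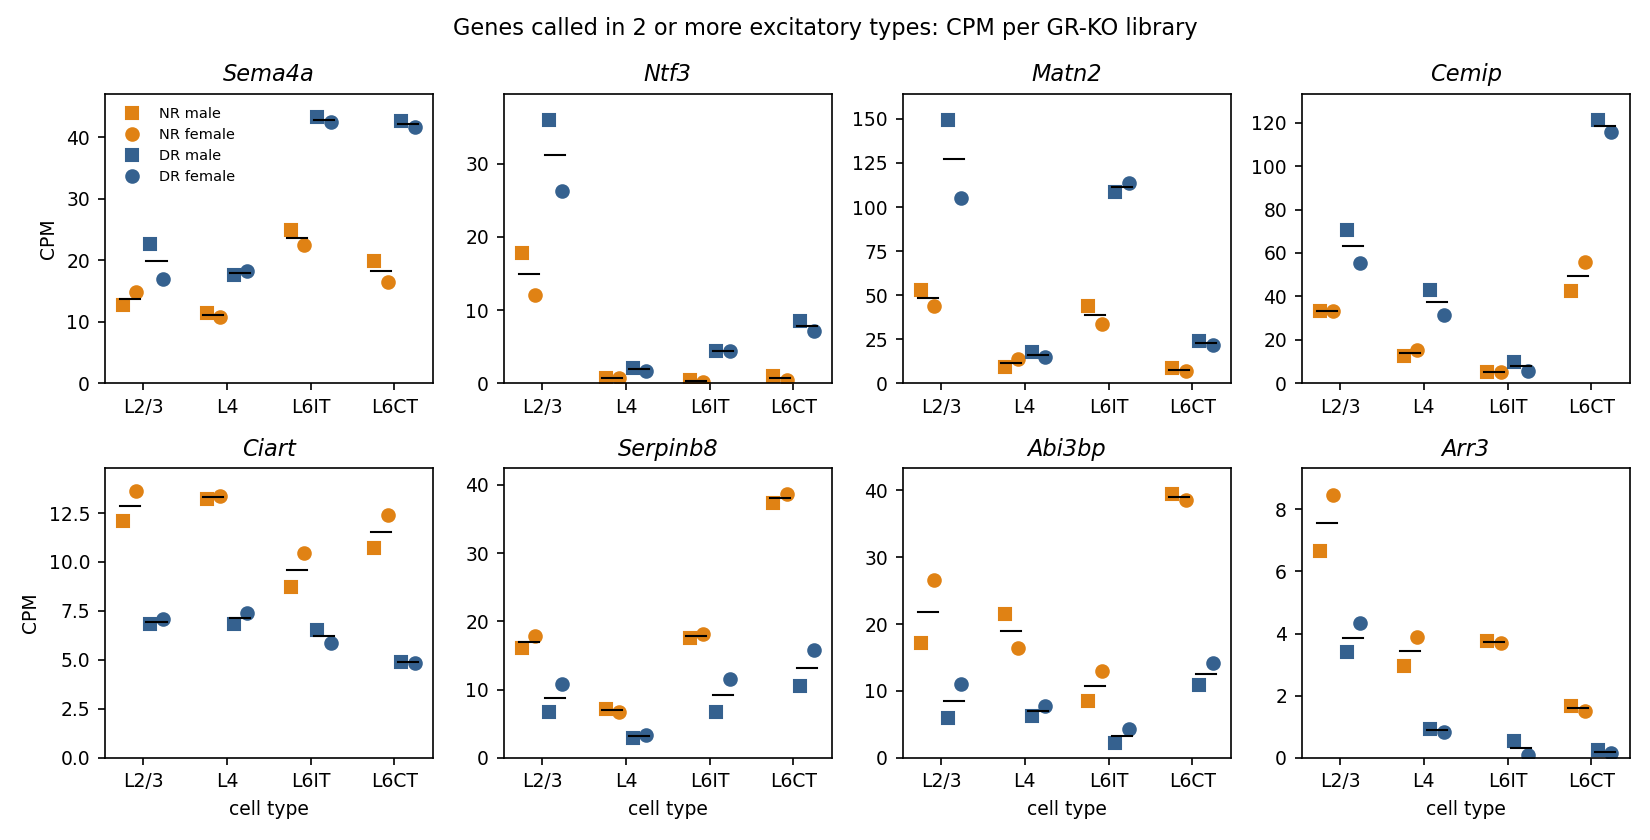
Level (CPM, scaled over the 4 GR-KO libraries) of 8 genes called in at least 2 excitatory types, in each GR-KO library, for L2/3, L4, L6IT and L6CT. Each point is a library, NR or DR, and each line is the mean of 2. Ntf3 in L6CT went from 1.01 and 0.512 CPM in NR to 8.57 and 7.19 CPM in DR, and Ciart in L4 from 13.2 and 13.4 CPM to 6.86 and 7.40 CPM.

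Since these genes were called in more than 1 layer, the promoters of the 10 were searched for 4 motifs, on both strands, in windows from 250 bases before to 50 bases after each start in the RefSeq annotation of GRCm38.p6. Of the 10 genes, 6 had a window. The motifs were the E-box CACGTG, bound by clock proteins and other factors (in 7.15% of the 32851 windows of all genes), the AP-1 site TGACTCA or TGAGTCA, bound by Fos and Jun proteins (5.20%), the short cyclic AMP response element TGACG (20.8%) and the EGR core GCGTGGG (5.04%). The Ciart window held 3 E-boxes, the Serpinb8 window 2 AP-1 sites, and 1 of 2 Ntf3 windows an E-box. The windows of Sema4a, Cemip and Arr3 held none of the letters searched. A match describes the sequence and does not show binding. The 3 windows with a match follow, 5′ to 3′ on the strand of the gene, with matches in capitals. They lie at chr3:95882179-95882478 (minus strand), chr1:107589756-107590055 (plus strand) and chr6:126166695-126166994 (minus strand).
Ciart: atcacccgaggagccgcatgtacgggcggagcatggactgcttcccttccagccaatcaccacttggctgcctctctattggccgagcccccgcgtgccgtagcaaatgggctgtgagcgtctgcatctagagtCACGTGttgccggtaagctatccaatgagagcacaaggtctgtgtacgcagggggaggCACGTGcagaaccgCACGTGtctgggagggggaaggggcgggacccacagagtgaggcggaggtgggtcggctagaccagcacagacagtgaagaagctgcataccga
Serpinb8: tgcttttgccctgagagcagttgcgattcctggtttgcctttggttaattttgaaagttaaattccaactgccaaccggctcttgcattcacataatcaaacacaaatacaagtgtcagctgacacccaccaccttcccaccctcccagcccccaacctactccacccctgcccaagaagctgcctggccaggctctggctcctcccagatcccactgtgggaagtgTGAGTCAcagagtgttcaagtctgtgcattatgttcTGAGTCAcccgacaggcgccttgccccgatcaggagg
Ntf3: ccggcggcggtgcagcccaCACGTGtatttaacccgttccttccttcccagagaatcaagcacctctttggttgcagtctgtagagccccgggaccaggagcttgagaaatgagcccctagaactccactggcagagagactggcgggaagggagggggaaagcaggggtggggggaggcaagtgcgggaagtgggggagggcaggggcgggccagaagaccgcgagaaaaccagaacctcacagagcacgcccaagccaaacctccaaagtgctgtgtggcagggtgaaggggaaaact

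In L4, 146 genes rose (0.837%) and 72 fell (0.413%). Grik4, a kainate receptor subunit, rose from 11.2 and 12.5 CPM to 44.1 and 38.9 CPM (1.81, SE 0.103, adjusted p 0.0229), and with Grid1 (349 and 379 to 536 and 568 CPM, 0.60) and Grm4 (25.9 and 24.6 to 37.8 and 41.6 CPM, 0.65), both at adjusted p 0.0451, it made up the 3 of 24 glutamate receptor genes called, all higher. The median of the 24 was 0.08. The AMPA subunit Gria1 was at 340.4 and 349 CPM in the NR libraries and 561 and 466 CPM in the DR libraries and was not called (adjusted p 0.0611). Of 32 axon guidance genes, the semaphorin co-receptor Nrp1 (14.0 and 10.3 to 31.5 and 42.3 CPM, 1.61, adjusted p 0.0433) and the secreted ligand Slit1 (28.6 and 26.3 to 66.5 and 48.4 CPM, 1.06, adjusted p 0.0484) rose and none fell.

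The called genes of L4 with the largest fold changes at higher levels included Adamtsl1, a secreted ADAMTS-like protein, at 17.2 and 26.6 CPM in the NR libraries and 61.0 and 65.2 CPM in the DR libraries (1.52, adjusted p 0.0451), and Sgsm1, at 75.6 and 53.0 CPM in the NR libraries and 154 and 142 CPM in the DR libraries (1.20, adjusted p 0.0466). In the other direction stood Wls, which carries Wnt proteins to the cell surface, at 112 and 131 CPM in the NR libraries and 52.0 and 57.7 CPM in the DR libraries (-1.15, adjusted p 0.0342), and Barx2, a homeobox factor, at 51.4 and 53.7 CPM in the NR libraries and 21.1 and 26.5 CPM in the DR libraries (-1.14, adjusted p 0.0374). In each of these 4 genes the DR pair lay outside the NR pair, which the rule that named them required.

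Of 17 GR target genes tested in L4, Fkbp5 and Sgk1 rose (0.837% of all L4 genes were called higher). Fkbp5, a co-chaperone of GR, was at 12.8 and 11.6 CPM in the NR libraries and 24.6 and 23.1 CPM in the DR libraries (0.97, SE 0.0955, adjusted p 0.0346), and Sgk1, a kinase, at 96.3 and 99.3 CPM in the NR libraries and 135 and 143 CPM in the DR libraries (0.50, adjusted p 0.0451). The median of the list was 0.05, and 8 of the 17 had a fold change below 0. Fkbp5 in L4 was at 22.4 and 12.9 CPM in NR GR-Con and 13.2 and 21.6 CPM in DR GR-Con, pairs that overlapped. In other neuron types the NR male library often held more Fkbp5 than the NR female library, as in L6CT (48.8 and 21.6 CPM, with 44.7 and 50.1 CPM in DR) and L5PT (83.4 and 31.0 CPM, with 114 and 116 CPM in DR), and the gene was not called there.

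In L6IT, 14 genes were called higher (0.0919%) and 8 lower (0.0525%). Spon1, which encodes the matrix protein F-spondin, was at 66.6 and 61.6 CPM in the NR libraries and 182 and 172 CPM in the DR libraries (1.47, SE 0.0843, adjusted p 0.0177). Cdh6, a cadherin, fell from 94.3 and 84.2 CPM to 51.1 and 49.3 CPM (-0.83, adjusted p 0.0468), and the predicted gene Gm32647 from 236 and 237 to 91.8 and 109 CPM (-1.24, adjusted p 0.036).

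In L6CT, 63 genes were called higher (0.393%) and 20 lower (0.125%). Adamts2, a procollagen-processing enzyme, rose from 9.47 and 13.9 CPM to 56.6 and 57.2 CPM (2.28, SE 0.184, adjusted p 0.0395), and Ptpru, a receptor tyrosine phosphatase, from 32.6 and 26.0 to 97.6 and 75.5 CPM (1.56, adjusted p 0.0425). Rxra, the retinoid X receptor alpha, was the 1 gene called of 19 thyroid hormone and retinoic acid genes, at 3.98 and 3.34 CPM in the NR libraries and 10.1 and 9.01 CPM in the DR libraries (1.38, adjusted p 0.043). Asph, an aspartyl hydroxylase, fell (123 and 131 CPM in the NR libraries and 75.9 and 80.4 CPM in the DR libraries, -0.70, adjusted p 0.0425). Gabra2, the GABA-A receptor subunit alpha 2, fell as well, from 77.1 and 80.1 to 45.2 and 50.4 CPM (-0.72, adjusted p 0.0495), the 1 of 12 GABA-A subunits called. The likelihood ratio test also called Gabra4 lower (-0.83). The median of the GABA-A list was below 0 in each of the 8 excitatory types (-0.39 to -0.14), and in GR-Con between -0.30 and 0.10.

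In L2/3 the named genes were chosen after their values were seen, as those called by both the likelihood ratio test and DESeq2, since the quasi-likelihood test called 0. Both tests together called 1282 genes of L2/3 (7.02%). Trpc6, a cation channel, was at 57.8 and 51.9 CPM in the NR libraries and 21.3 and 18.5 CPM in the DR libraries (-1.46, adjusted p 0.051 by the quasi-likelihood and 2.91e-14 by the likelihood ratio test). Kcnv1, a potassium channel subunit, was at 55.4 and 76.9 CPM in the NR libraries and 23.6 and 26.2 CPM in the DR libraries (-1.41), and Tcerg1l at 19.4 and 12.96 CPM in the NR libraries and 78.9 and 43.1 CPM in the DR libraries (1.92). Fkbp5 was at 33.4 and 20.4 CPM in the NR libraries and 83.3 and 63.1 CPM in the DR libraries (1.44, adjusted p 0.0605 and 0.000106). None of these pairs overlapped, which the rule that named them required. Of 8 genes that mark subtypes of L2/3, the likelihood ratio test called Matn2 and Adamts2 higher and Trpc6 and Baz1a lower (4.25% and 4.29% of all L2/3 genes). Adamts2 was at 39.5 and 40.3 CPM in the NR libraries and 133 and 72.0 CPM in the DR libraries and Baz1a at 20.0 and 17.1 CPM in the NR libraries and 4.35 and 8.41 CPM in the DR libraries. In GR-Con the log2 fold changes of these 4 genes were 1.38, 1.24, -0.99 and -1.62, each in the same direction.

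The deep layer types with few or no calls gave the following by the same choice. In L5IT Crtac1, a secreted matrix protein, was at 70.3 and 64.2 CPM in the NR libraries and 166 and 166 CPM in the DR libraries (1.30, adjusted p 0.0676 by the quasi-likelihood test), Adamts2 was at 20.2 and 40.8 CPM in the NR libraries and 96.5 and 89.8 CPM in the DR libraries (1.63), and Wls at 66.5 and 113 CPM in the NR libraries and 17.3 and 29.4 CPM in the DR libraries (-1.93). The direction of Wls and of Adamts2 was that seen in L4 and L6CT. In L5PT Robo3, a receptor of Slit proteins, was at 53.0 and 29.5 CPM in the NR libraries and 107 and 115 CPM in the DR libraries (1.36) and Etv1, a transcription factor of layer 5, at 209 and 386 CPM in the NR libraries and 90.3 and 113 CPM in the DR libraries (-1.54). The NR female library held 59 L5PT nuclei. In L5NP Igsf21, a synaptic adhesion protein, was at 37.7 and 39.0 CPM in the NR libraries and 131 and 81.5 CPM in the DR libraries (1.46). Tiam1, an activator of Rac, and Sez6l were higher by the likelihood ratio test in 7 of the 8 excitatory types. The quasi-likelihood test called Tiam1 in L6CT (0.80, adjusted p 0.0395) and Sez6l in L6IT (0.73, adjusted p 0.0468).

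Malat1, an abundant nuclear long noncoding RNA, was at 59979 and 63843 CPM in the NR libraries and 32280.0 and 38386 CPM in the DR libraries in L2/3. It was called lower by the likelihood ratio test in 7 of the 8 excitatory types (log2 fold changes of -0.81 to -0.49 over the 8) and by the quasi-likelihood test in none. Markers of inhibitory neurons, which excitatory nuclei should lack, were lower in both DR than in both NR libraries of L4 and L6CT. Their 4 markers summed to 11.3 and 9.64 CPM in NR L4 and 5.79 and 4.91 CPM in DR L4, and to 10.2 and 10.1 against 6.11 and 6.06 CPM in L6CT, with 0 of 4 called by the quasi-likelihood test and none at 0 counts in any of these libraries. In GR-Con L4 they summed to 7.89 and 5.66 CPM in NR and 4.53 and 7.24 CPM in DR. The part of such RNA in the calls of L4 and L6CT was not tested.

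The next question was whether genes induced by neuronal activity were lower in DR GR-KO animals. No gene of the list of 18 immediate early transcription factors was called by the quasi-likelihood test in any of the 12 neuron types. Over the 8 excitatory types 19 of 107 tests had an unadjusted p under 0.05, against 20849 of 117034 over all genes. The likelihood ratio test called 0 higher and 7 lower, against 2.22% higher and 2.15% lower over all genes. DESeq2 called 0 and 2. In L2/3 15 of the 17 genes tested had a fold change below 0 with a median of -0.998 (GR-Con -0.48), in L4 16 of 17 with a median of -0.996 (GR-Con -0.09), and in L5PT 13 of 13 with a median of -1.19 (GR-Con -0.18). The median over all genes of a type lay between -0.04 and 0.03.

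These medians came from 1 library. Fos in L2/3 was at 14.9 and 1.22 CPM in the NR libraries and 1.39 and 1.61 CPM in the DR libraries. Egr1 was at 38.8 and 8.38 CPM in the NR libraries and 8.75 and 9.68 CPM in the DR libraries, and Npas4 at 44.9 and 6.31 CPM in the NR libraries and 7.32 and 6.17 CPM in the DR libraries. In each case the NR male library was high and the NR female library lay at the level of the DR libraries. L4 showed the same order, with Fos at 30.7 and 1.31 CPM in the NR libraries and 3.50 and 3.38 CPM in the DR libraries, Egr1 at 77.3 and 12.6 CPM in the NR libraries and 17.5 and 17.9 CPM in the DR libraries and Npas4 at 58.9 and 5.79 CPM in the NR libraries and 11.4 and 7.09 CPM in the DR libraries. Without the NR male library the median of the list became 0.24 in L2/3, 0.66 in L4, -0.13 in L5PT and -0.03 in Pvalb, and 6 of 17 genes were below 0 in L2/3 and 4 of 17 in L4. Without any other single library it stayed between -1.52 and -1.04 in L2/3 and between -1.86 and -0.78 in L4. Over the 12 neuron types the median without the NR male library was above 0 in 9 and below 0 in L5PT, Pvalb and L5NP (-0.29, with 5 of 7 genes below 0). In GR-Con L2/3, Fos was at 2.02 and 1.39 CPM in NR and 0.852 and 1.57 CPM in DR, and Npas4 at 13.8 and 11.7 and 5.74 and 6.87 CPM.

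Effectors of activity were examined in L2/3 as well. Scg2, which encodes the neuropeptide precursor secretogranin II, was at 13.3 and 9.67 CPM in the NR libraries and 2.52 and 2.66 CPM in the DR libraries, with a log2 fold change of -2.15 (SE 0.186, adjusted p 0.051 by the quasi-likelihood and 2.91e-14 by the likelihood ratio test). Both NR libraries lay above both DR libraries. Nptx2, a secreted pentraxin of excitatory synapses, was at 7.59 and 4.51 CPM in the NR libraries and 1.43 and 1.99 CPM in the DR libraries (-1.82, 0.0585 and 4.56e-05). The neurotrophin Bdnf was at 32.2 and 17.9 CPM in the NR libraries and 10.8 and 9.72 CPM in the DR libraries (-1.29, 0.0742 and 0.00157), and Inhba, a subunit of activin, at 23.6 and 26.7 CPM in the NR libraries and 11.9 and 15.0 CPM in the DR libraries (-0.90, 0.0547 and 0.000222). These pairs did not overlap, although Bdnf and Nptx2 were higher in the NR male than in the NR female library. These genes, Scg2 included, were picked from the list after their values were seen. The share of all L2/3 genes without overlap is not given here.

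Of the 20 effectors tested in L2/3, the quasi-likelihood test called 0, 12 had an unadjusted p under 0.05, the likelihood ratio test called 10 and DESeq2 7, all lower. Over all 18261 genes of L2/3, 4926 had an unadjusted p under 0.05 and the likelihood ratio test called 4.29% lower. The median of the effectors was -1.16 (GR-Con -0.57). Without the NR male library 15 of 20 were below 0 with a median of -0.50. In L4 the median was -0.32 and turned to 0.32 without that library. Scg2 was called lower by the likelihood ratio test in L2/3, L4, L5PT, L6CT and L6IT, for instance in L6IT at 33.8 and 32.9 CPM in the NR libraries and 19.6 and 18.5 CPM in the DR libraries (-0.81, adjusted p 0.0501 by the quasi-likelihood test) and in L5PT at 9.38 and 9.08 CPM in the NR libraries and 3.33 and 3.34 CPM in the DR libraries (-1.47). In Sst cells Scg2 was at 19.9 and 12.7 CPM in the NR libraries and 17.9 and 15.0 CPM in the DR libraries, with no separation. In GR-Con L2/3 it was at 12.1 and 9.84 CPM in NR and 3.84 and 5.00 CPM in DR (-1.31, adjusted p 0.0334).

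**Figure D3:**
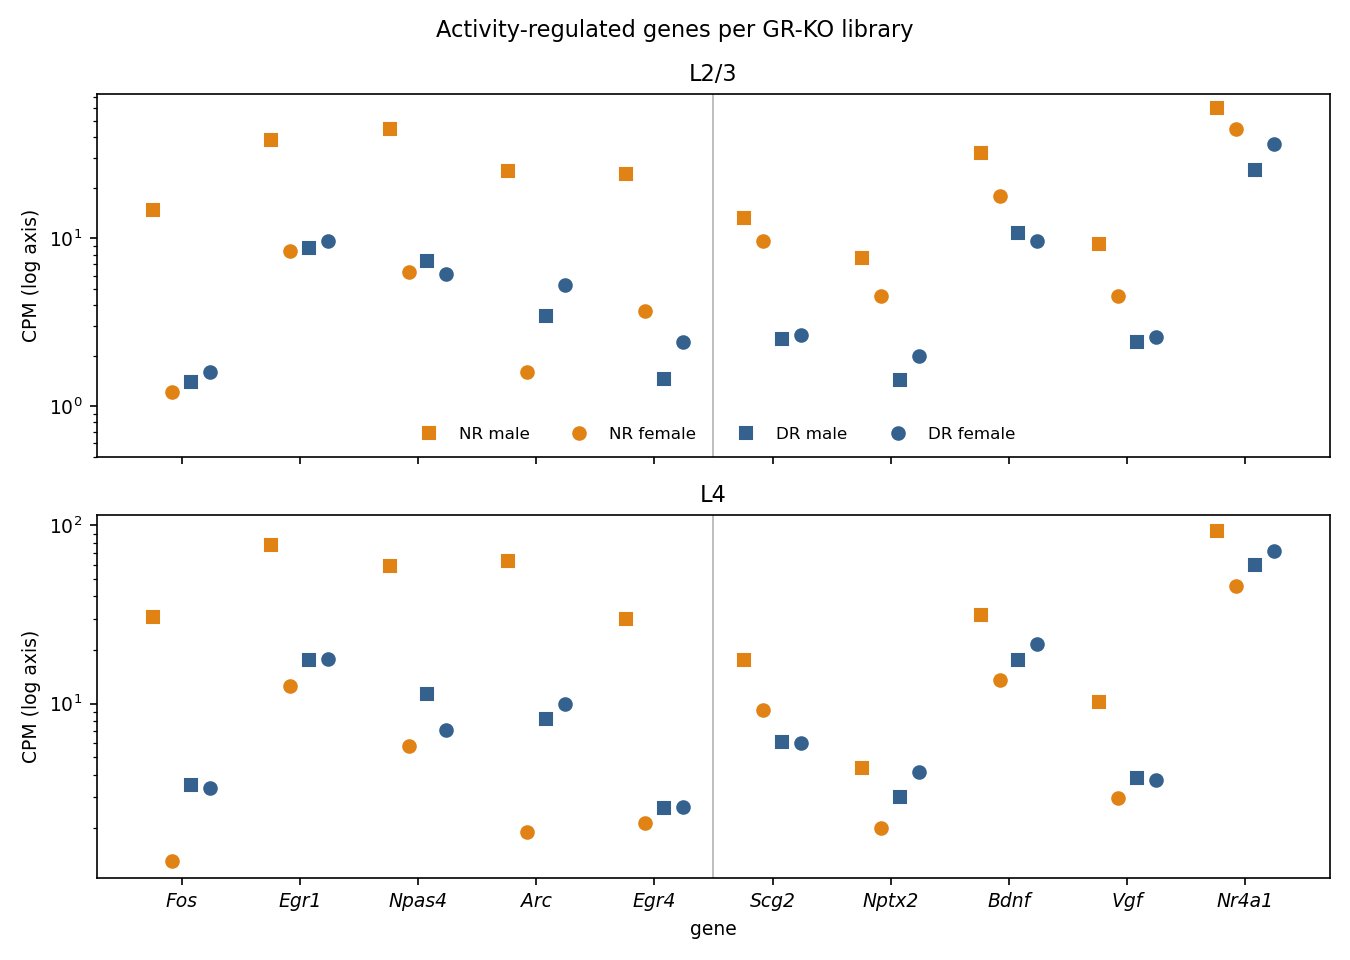
Level (CPM, log axis) of immediate early genes (Fos, Egr1, Npas4, Arc, Egr4, Nr4a1) and effectors (Scg2, Nptx2, Bdnf, Vgf) in each GR-KO library, in L2/3 and L4. Nr4a1 is drawn last, beside the effectors. The NR male library is alone at the top for Fos in L2/3 (14.9 CPM against 1.22 to 1.61 CPM in the others), while both NR libraries lie above both DR libraries for Scg2 (13.3 and 9.67 against 2.52 and 2.66 CPM).

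Other lists had at most 3 calls over the 8 excitatory types by the quasi-likelihood test. The 3 axonal genes of the study had 0 calls in the 8 types by the quasi-likelihood test, by the likelihood ratio test and by DESeq2, with 1 of 24 tests at an unadjusted p under 0.05. Their best value was Gap43 in L6CT, at 126 and 83.7 CPM in the NR libraries and 149 and 154 CPM in the DR libraries (adjusted p 0.189). Medians of these 3 genes over the 8 types were -0.27 to 0.26, and -0.14 to 1.57 in GR-Con. The study describes a similar set of genes as raised by dark rearing in wild-type excitatory neurons. That statement rests on wider sets per type, of genes raised by astrocyte GR loss in NR. It concerns another genotype than the GR-KO values above. Glutamate receptor genes had medians from 0.03 to 0.23 over the 8 types, with the 3 calls of L4, and the likelihood ratio test called 20 higher and 5 lower of 186 tests (2.22% and 2.15% of all genes). GR targets had medians from -0.12 to 0.18 and thyroid hormone and retinoic acid genes from -0.06 to 0.26.

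Medians of lists of other cell types were mostly below 0 in excitatory nuclei. The 24 genes of myelin and oligodendrocyte maturation had medians of -0.90 to -0.56 over the 8 types (-1.02 to -0.11 in GR-Con). The quasi-likelihood test called 0 of 126 tests, and 71 had an unadjusted p under 0.05. The likelihood ratio test called 1 higher and 34 lower, against 2.22% and 2.15% of all genes, and DESeq2 2 and 17. Examples are Mobp, a myelin protein, in L2/3 (7.26 and 6.73 CPM in the NR libraries and 3.93 and 4.36 CPM in the DR libraries, -0.76) and Mal, a membrane protein of myelin, in L4 (5.26 and 4.21 CPM in the NR libraries and 2.49 and 2.65 CPM in the DR libraries, -0.87). Interneuron maturation genes had medians of -0.60 to -0.03 (-0.78 to -0.01 in GR-Con), with 51 of 127 tests at an unadjusted p under 0.05 and 3 higher and 25 lower by the likelihood ratio test. The quasi-likelihood test called 2, named here after their values were seen, the neuropeptide gene Vip in L4 (3.26 and 2.78 CPM in the NR libraries and 1.04 and 1.21 CPM in the DR libraries, -1.41, adjusted p 0.0466) and the potassium channel gene Kcnc2 in L6CT (24.0 and 28.2 CPM in the NR libraries and 10.8 and 10.99 CPM in the DR libraries, -1.26, adjusted p 0.0395). The part of RNA from other cell types in these values was not tested.

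**Figure D4:**
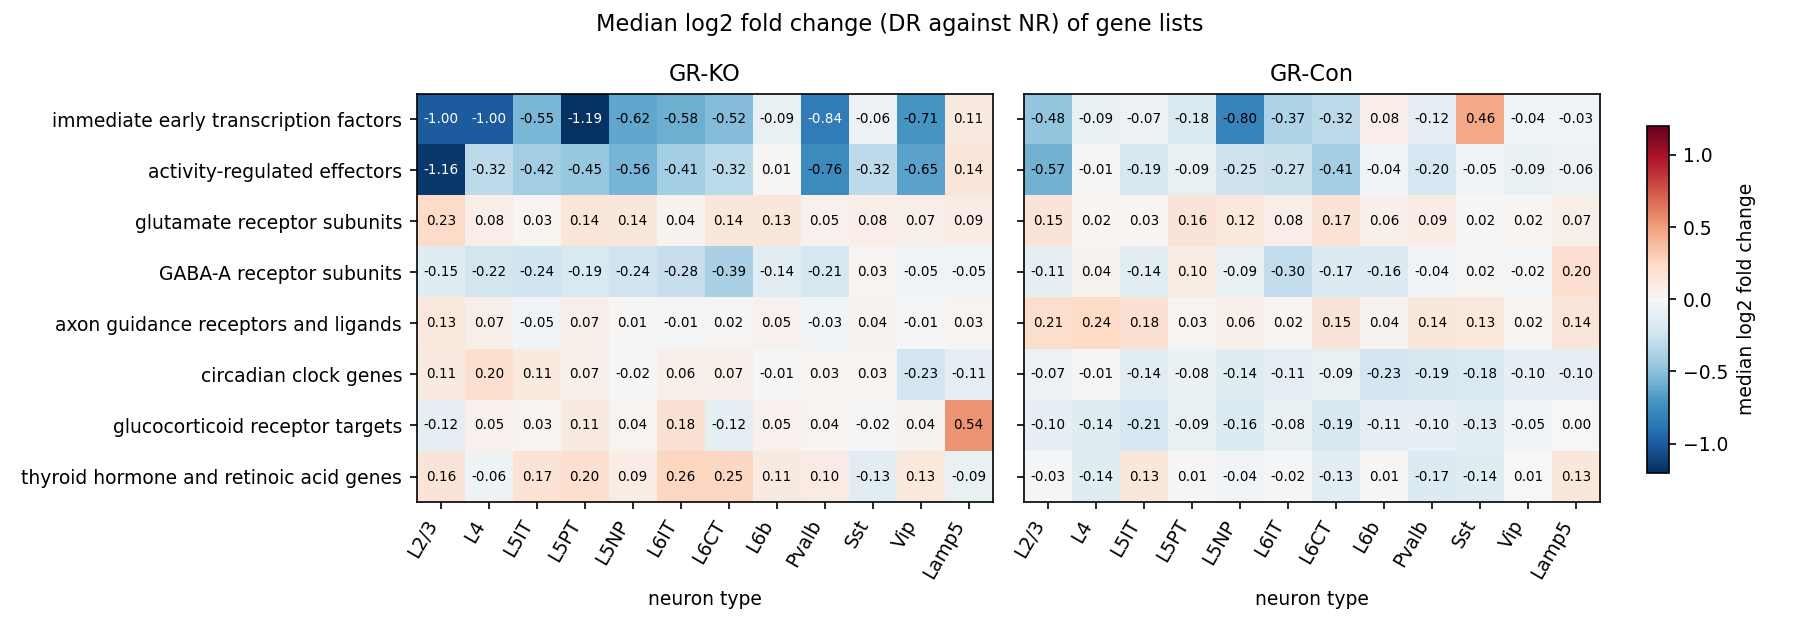
Median log2 fold change (DR against NR) of the tested members of 8 gene lists, in 12 neuron types, for GR-KO and for GR-Con libraries. The lowest medians in GR-KO are those of immediate early transcription factors in L5PT (-1.19) and of activity-regulated effectors in L2/3 (-1.16), and without the NR male library they become -0.13 and -0.50.

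Among interneurons the quasi-likelihood test made 73 calls in 51094 gene tests (0.143%), 53 higher (0.104%) and 20 lower (0.0391%), of which 39 in Pvalb (24 higher, 0.171%, and 15 lower, 0.107%) and 32 in Lamp5 cells. Without the DR female, DR male, NR female and NR male library the counts were 1, 21, 392 and 681 in Pvalb and 95, 97, 96 and 485 in Lamp5 cells. By the likelihood ratio test there were 285 calls in Pvalb and 212 in Lamp5 cells.

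In both Pvalb and Lamp5 cells 3 genes rose. Cacng2, which encodes stargazin, an auxiliary subunit of AMPA receptors, was at 192 and 171 CPM in the NR libraries and 275 and 296 CPM in the DR libraries in Pvalb (0.66, adjusted p 0.0228) and at 130.2 and 124 CPM in the NR libraries and 209 and 275 CPM in the DR libraries in Lamp5 cells (0.92, adjusted p 0.0344). The phosphatase gene Ubash3b was at 341 and 352 CPM in the NR libraries and 571 and 519 CPM in the DR libraries in Pvalb (0.65, adjusted p 0.0169) and rose in Lamp5 cells by 0.86 (adjusted p 0.0344). Adgra1, an adhesion G protein-coupled receptor, rose by 0.52 in Pvalb (adjusted p 0.0462) and, from 33.2 and 29.7 to 59.2 and 65.2 CPM, by 0.97 in Lamp5 cells (adjusted p 0.0344).

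Nrgn, which encodes neurogranin, a calmodulin-binding protein of excitatory neurons, fell in both, at 48.6 and 50.5 CPM in the NR libraries and 28.4 and 29.2 CPM in the DR libraries in Pvalb (-0.78, adjusted p 0.0169) and at 73.3 and 75.9 CPM in the NR libraries and 34.8 and 43.9 CPM in the DR libraries in Lamp5 cells (-0.93, adjusted p 0.0354). It fell as well in astrocytes (119.6 and 111 CPM in the NR libraries and 65.5 and 70.1 CPM in the DR libraries, -0.76), OPCs (-0.94), oligodendrocytes (-0.87) and VLMCs (-1.13), and not in L4, where it was at 224 and 244 CPM in the NR libraries and 226 and 231 CPM in the DR libraries (-0.03), nor in L2/3 (0.04). The 4 markers of excitatory neurons summed to 223 and 250.1 CPM in NR Pvalb and 271 and 239.6 CPM in DR Pvalb, and to 290.2 and 316 against 373 and 297 CPM in Lamp5 cells, pairs that overlapped. In GR-Con Lamp5 cells the log2 fold change of Nrgn was -0.98 (adjusted p 0.0351).

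In Pvalb cells the heparan sulphate proteoglycan Gpc5 rose (25.0 and 22.6 CPM in the NR libraries and 40.6 and 52.8 CPM in the DR libraries, 0.97, adjusted p 0.0234), as did the transcription factor Creb3l2 (38.5 and 30.8 CPM in the NR libraries and 58.4 and 60.7 CPM in the DR libraries, 0.77, adjusted p 0.0321) and Grin2d, an NMDA receptor subunit (38.2 and 35.7 CPM in the NR libraries and 53.4 and 55.5 CPM in the DR libraries, 0.56, adjusted p 0.0385). Nrn1, which encodes neuritin, fell (9.80 and 11.2 CPM in the NR libraries and 3.26 and 4.40 CPM in the DR libraries, -1.43, adjusted p 0.0385). Arpp21 and Cacna2d1, a calcium channel subunit, fell too, but the NR female library held most of each, with Arpp21 at 84.7 and 145 CPM in the NR libraries and 47.1 and 48.4 CPM in the DR libraries (-1.26, adjusted p 0.0385) and Cacna2d1 at 43.1 and 67.8 CPM in the NR libraries and 26.4 and 23.0 CPM in the DR libraries (-1.15, adjusted p 0.0441). The list of interneuron maturation genes had 0 of 20 called in Pvalb cells by the quasi-likelihood test (8 at an unadjusted p under 0.05, against 2040 of 13997 over all genes of these cells, 0 higher and 2 lower by the likelihood ratio test, 0 by DESeq2) and a median of -0.02. Gad1, which makes GABA, was at 279 and 256 CPM in the NR libraries and 303 and 356 CPM in the DR libraries (adjusted p 0.176). Perineuronal net genes had 0 of 11 called in Pvalb cells (0 at an unadjusted p under 0.05, and 0 by the likelihood ratio test and DESeq2) and a median of 0.01.

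In Lamp5 cells 29 genes were called higher (0.257%) and 3 lower (0.0265%). Gfod1 was at 72.5 and 65.8 CPM in the NR libraries and 161 and 153 CPM in the DR libraries (1.18, SE 0.112, adjusted p 0.00309). The growth factor Igf1 rose (154 and 139 CPM in the NR libraries and 261 and 285 CPM in the DR libraries, 0.89, adjusted p 0.0113), as did the kainate receptor subunit Grik4 (80.4 and 91.1 CPM in the NR libraries and 144 and 141 CPM in the DR libraries, 0.74), the clock factor Npas2 (159 and 133 CPM in the NR libraries and 227 and 244 CPM in the DR libraries, 0.69, adjusted p 0.046) and Popdc3 (32.7 and 18.6 CPM in the NR libraries and 62.9 and 62.9 CPM in the DR libraries, 1.27, adjusted p 0.045). The neuropeptide gene Npy fell from 81.2 and 81.3 CPM to 35.7 and 34.1 CPM (-1.22, SE 0.137, adjusted p 0.00824). Npy was the 1 of 15 interneuron maturation genes called there.

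In Sst and Vip cells, where the quasi-likelihood test called 1 gene each, 1353 and 1164 genes had an unadjusted p under 0.05. By the likelihood ratio test and DESeq2 together 13 and 4 genes were called. Among them were Laptm4b, a lysosomal membrane protein, in Sst cells (28.6 and 20.8 CPM in the NR libraries and 55.6 and 56.4 CPM in the DR libraries, 1.14) and again Nrgn, in Sst (54.8 and 69.5 CPM in the NR libraries and 27.5 and 32.1 CPM in the DR libraries, -1.04) and in Vip cells (61.4 and 86.9 CPM in the NR libraries and 33.3 and 33.1 CPM in the DR libraries, -1.15).

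In astrocytes, the cells aimed at by the vector, 74 genes rose (0.511%) and 185 fell (1.28%). Genes that fell were mostly ones that neurons express. Neuron-enriched genes, whose GR-Con CPM was at least 4 times higher in excitatory neurons than in the type at hand, made up 115 of the 185 (62.2%) and 0 of the 74, where they were 8.85% of the genes tested. Genes of this kind took 4.25% and 4.44% of astrocyte UMIs in the NR libraries and 3.49% and 3.46% in the DR libraries. The 4 markers of excitatory neurons summed to 143 and 144 CPM in NR and 109 and 103 CPM in DR, and none was at 0. Their part in the lower calls was not tested. Without the DR female, DR male, NR female and NR male library the counts of calls were 26, 5, 1093 and 1220, and with nuclei of at least 7024 UMIs, which kept 924 and 862 astrocytes in NR and 73 and 117 in DR, 187. Of these, 117 were higher and 70 lower, so the excess of lower calls turned round. With sex as a term there were 583. A fit over all 8 libraries, in which the spread of the GR-Con libraries enters, called 0 genes for the same contrast in astrocytes (1233 at an unadjusted p under 0.05), so every astrocyte call of DR against NR named below rests on the spread of the 4 GR-KO libraries alone.

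Genes not enriched in neurons gave the following picture. Of 12 matrix genes of the study, Adamts9, a protease that cleaves versican, Vcan, which encodes versican, and Tnc, which encodes tenascin C, rose. Of all astrocyte genes 0.511% were called higher and 1.28% lower. Adamts9 was at 103 and 109.9 CPM in the NR libraries and 202 and 195 CPM in the DR libraries (0.90, SE 0.0835, adjusted p 0.00213), Vcan at 68.0 and 87.7 CPM in the NR libraries and 128 and 124 CPM in the DR libraries (0.69, adjusted p 0.0174) and Tnc at 218 and 214 CPM in the NR libraries and 332 and 284 CPM in the DR libraries (0.51, adjusted p 0.0249). Their pairs did not overlap. The same list held Scrg1, which fell (58.2 and 51.2 CPM in the NR libraries and 37.8 and 40.1 CPM in the DR libraries, -0.49, adjusted p 0.0487). The list was taken from the text of the study, where it belongs to the comparison of genotypes in other astrocyte samples and not to rearing. Its median was 0.29 (GR-Con -0.18).

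Genes of cholesterol synthesis and uptake had fold changes below 0 in DR GR-KO astrocytes, all 21 tested, with a median of -0.46 (GR-Con -0.58), the quasi-likelihood test called 4 lower (1.28% of all astrocyte genes), the likelihood ratio test 7 (2.21%) and DESeq2 3. Lss, which encodes lanosterol synthase, fell most of the called members, at 37.8 and 50.5 CPM in the NR libraries and 21.8 and 19.7 CPM in the DR libraries (-1.10, adjusted p 0.00745). Mvk and Mvd, enzymes of the mevalonate pathway, were at 25.5 and 26.4 CPM in the NR libraries and 16.3 and 16.2 CPM in the DR libraries (-0.68, adjusted p 0.0373) and at 27.6 and 27.8 CPM in the NR libraries and 18.9 and 16.3 CPM in the DR libraries (-0.66, adjusted p 0.0453). Nsdhl, a later step, was at 91.5 and 103 CPM in the NR libraries and 69.6 and 67.6 CPM in the DR libraries (-0.50, adjusted p 0.0327). The list's medians were also below 0 in the 8 excitatory types (-0.90 to -0.11), with 0 calls there by the quasi-likelihood test. There were 45 of 164 tests at an unadjusted p under 0.05, 18 lower by the likelihood ratio test and 6 by DESeq2, where all genes had 20849 of 117034 and 2.15%. Acss2, which makes acetyl-CoA from acetate, fell in astrocytes, at 179 and 312 CPM in the NR libraries and 109.7 and 109 CPM in the DR libraries (-1.17, adjusted p 0.0163).

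Of 11 maturation and GR target genes of the study, Zbtb16 rose and Mt1, Aldoc and Aldh1a1 fell (0.511% and 1.28% of all astrocyte genes were called higher and lower). Zbtb16, a transcription factor induced by glucocorticoids, was at 59.3 and 37.1 CPM in the NR libraries and 75.9 and 117 CPM in the DR libraries (1.02, adjusted p 0.043). The metallothionein Mt1 was at 75.6 and 78.7 CPM in the NR libraries and 42.4 and 52.0 CPM in the DR libraries (-0.70, adjusted p 0.0133), the aldolase Aldoc at 157 and 185 CPM in the NR libraries and 125 and 129 CPM in the DR libraries (-0.43, adjusted p 0.0495) and Aldh1a1, an aldehyde dehydrogenase, at 192 and 258 CPM in the NR libraries and 143 and 155 CPM in the DR libraries (-0.60, adjusted p 0.0402). Fkbp5 was at 21.2 and 4.85 CPM in the NR libraries and 9.99 and 16.2 CPM in the DR libraries, pairs that overlapped. This list too was taken from the text of the study. The clock output gene Dbp fell (53.0 and 76.6 CPM in the NR libraries and 39.0 and 35.7 CPM in the DR libraries, -0.80, adjusted p 0.0291).

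Other called astrocyte genes at an average log2 CPM of at least 5, chosen by fold change after leaving out neuron-enriched genes and overlapping pairs, were Slco1b2, an organic anion transporter, at 57.6 and 82.0 CPM in the NR libraries and 15.2 and 6.56 CPM in the DR libraries (-2.74, SE 0.269, adjusted p 0.00253), Igfbp2, a binding protein of insulin-like growth factors, at 39.9 and 59.6 CPM in the NR libraries and 21.8 and 23.7 CPM in the DR libraries (-1.13), and Pde10a, a phosphodiesterase abundant in striatal neurons, at 239 and 296 CPM in the NR libraries and 107 and 145 CPM in the DR libraries (-1.08, adjusted p 0.006). Higher were among others Tox2 at 71.8 and 58.8 CPM in the NR libraries and 119.7 and 117 CPM in the DR libraries (0.86, adjusted p 0.006) and Zswim6 at 374 and 313 CPM in the NR libraries and 546 and 693 CPM in the DR libraries (0.85). Among nuclei of at least 7024 UMIs the log2 fold change of Igfbp2 was -0.27. In that subset few DR astrocytes remained.

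In OPCs 136 genes were called higher (1.18%) and 132 lower (1.15%), and 43 of the 132 (32.6%) were neuron-enriched against 3.51% of all genes tested. Such genes took 2.79% and 2.84% of OPC UMIs in NR and 2.35% and 2.44% in DR. Their part was not tested. Cspg4, which encodes the proteoglycan NG2 and defines these cells, rose (237 and 171 CPM in the NR libraries and 264 and 290.1 CPM in the DR libraries, 0.43, adjusted p 0.0288), the 1 of 11 precursor genes called. Lmcd1 rose from 24.9 and 23.6 CPM to 55.0 and 44.7 CPM (1.04, adjusted p 0.00196), Zbtb16 was at 135 and 56.1 CPM in the NR libraries and 146 and 225 CPM in the DR libraries (0.92), and Dbp fell (log2 fold change -1.21). The glycolytic enzyme Aldoa was at 48.3 and 36.8 CPM in the NR libraries and 23.2 and 13.4 CPM in the DR libraries (-1.23) and the haemoglobin gene Hbb-bs at 51.9 and 34.4 CPM in the NR libraries and 19.2 and 21.4 CPM in the DR libraries (-1.11). In the fit over all 8 libraries 12 genes were called in OPCs (5 higher and 7 lower, 1397 at an unadjusted p under 0.05). Counts without the DR female, DR male, NR female and NR male library were 167, 109, 341 and 563.

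In oligodendrocytes 38 genes were called higher (0.28%) and 44 lower (0.324%), and 31 of the 44 (70.5%) were neuron-enriched against 10.3% of all genes tested, although such genes took 3.51% and 4.52% of UMIs in NR and 3.62% and 3.73% in DR, pairs that overlapped. Myelin genes had 0 of 24 called by the quasi-likelihood test, with 9 at an unadjusted p under 0.05, 2 higher and 0 lower by the likelihood ratio test (1.66% and 2.13% of all genes), 1 by DESeq2 and a median of -0.11. Hapln2, which binds hyaluronan at nodes of Ranvier, fell (93.2 and 106 CPM in the NR libraries and 60.3 and 61.0 CPM in the DR libraries, -0.71, adjusted p 0.0292). Plppr1 was at 20.0 and 29.8 CPM in the NR libraries and 65.5 and 64.8 CPM in the DR libraries (1.39, adjusted p 0.0222) and Pid1 at 37.4 and 50.5 CPM in the NR libraries and 111 and 106 CPM in the DR libraries (1.30), and among nuclei of at least 7024 UMIs their log2 fold changes were 0.19 and 0.49. Atp6v0c, a subunit of the vacuolar proton pump, fell from 64.1 and 45.1 to 23.8 and 26.3 CPM (-1.12), and Atp1b1, of the sodium pump, from 75.4 and 61.3 to 37.5 and 36.6 CPM (-0.88). The fit over all 8 libraries called 3 genes in oligodendrocytes, all higher. Without either DR library 0 genes were called, and without the NR female and NR male library 1308 and 651.

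VLMCs, fibroblasts of the meninges, had the largest share of calls by the quasi-likelihood test, 272 higher (4.45%) and 643 lower (10.5%). They came from 20 and 47 nuclei in NR and 53 and 65 in DR. Excitatory neuron markers summed to 736 and 849 CPM in NR and 171 and 244 CPM in DR VLMCs, and 3 of the 4 were called lower. In GR-Con VLMCs they summed to 835 and 618 CPM in NR and 243 and 912 CPM in DR, the last from 3 nuclei. The part of neuronal RNA in the calls, lower or higher, was not tested, and the CPM of a gene also depends on the other RNA summed. By the definition used for astrocytes, 3 of the 6109 VLMC genes tested and 1 of the 643 lower calls were neuron-enriched. Leaving out such genes therefore removed almost none here. Among genes lower in DR were Sorcs3 (206 and 140.1 CPM in the NR libraries and 4.42 and 0 CPM in the DR libraries) and Mlip (219 and 278 CPM in the NR libraries and 4.42 and 3.48 CPM in the DR libraries). Among genes of the cells themselves, Col1a2, a collagen chain, was at 189.6 and 147 CPM in the NR libraries and 425 and 286 CPM in the DR libraries (1.08), Slc6a13, a GABA and taurine transporter of the meninges, at 349.8 and 478 CPM in the NR libraries and 823 and 791 CPM in the DR libraries (0.95), and Foxd1 at 88.3 and 102 CPM in the NR libraries and 195 and 178 CPM in the DR libraries (0.95), 3 of 12 mural and fibroblast genes and all higher, while DESeq2 called 0 of the 12 and 66 genes higher over all VLMC genes. Fkbp5 rose too, at 245 and 179 CPM in the NR libraries and 504 and 568 CPM in the DR libraries (1.35, adjusted p 0.0125). Endothelial cells had 0 of 19 barrier genes called by the quasi-likelihood test (1 at an unadjusted p under 0.05, 0 by the other tests).

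Microglia could be compared only without the NR GR-KO male library, which leaves 1 NR library with 714 nuclei against 2 DR libraries. The lone library is assumed to vary as the DR pair did. The quasi-likelihood test called 1088 of 12616 genes (8.62%), 371 higher (2.94%) and 717 lower (5.68%). Neuron-enriched genes took 7.52% of microglial UMIs in the NR library and 4.45% and 4.73% in the DR libraries, and their part in the lower calls was not tested. Of 20 genes of microglial homeostasis 3 were called, all higher, with a median of 0.07 over the list. Csf1r, the receptor that keeps these cells alive, was at 824 CPM in NR and 961 and 1017 CPM in DR (log2 fold change 0.26). Mertk, a receptor for engulfment, was at 1559 CPM in NR and 2309 and 2226 CPM in DR (0.54).

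The share of nuclei of a type did not pass the test of rearing for any of the 20 types (edgeR quasi-likelihood test on numbers of nuclei, smallest adjusted p 0.949, 0 types with an unadjusted p under 0.05, and 0 by the likelihood ratio test). Astrocytes made up 7.62% and 10.3% of nuclei in NR and 9.64% and 9.81% in DR, L2/3 21.4% and 21.4% against 22.2% and 21.7%, and L4 16.6% and 21.5% against 14.5% and 18.9%. Without the NR female library 4 types differed (L5IT, L6b, microglia and VLMCs) and without the NR male library 2 (L5PT and Sst). With 2 libraries a group, and nuclei chosen by a sort, small differences in share were not detectable.

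The last question was whether rearing changed GR-KO animals in the way it changed GR-Con animals, which shared no library with them. Values are given for types with at least 5 genes called in a direction. These genes were chosen by their change in GR-KO. The share of all tested genes with the same sign is not given here, so the counts below describe the called genes only. For the 63 genes called higher in L6CT the median log2 fold change was 1.05 in GR-KO and 0.70 in GR-Con, and 62 had the same sign. For the 146 called higher in L4 it was 0.69 and 0.29 (132 of the same sign), and for the 14 called higher in L6IT 0.89 and 0.59 (14). For the 24 called higher in Pvalb cells it was 0.63 and 0.21 (21), and for the 29 in Lamp5 cells 0.86 and 0.26 (27). Of genes called lower, the same sign was found for 62 of 71 in L4, 18 of 20 in L6CT, 6 of 8 in L6IT and 10 of 15 in Pvalb cells.

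In glia the counts varied with the type and the direction. The 185 genes called lower in GR-KO astrocytes had a median of -0.78 in GR-KO and 0.15 in GR-Con, where 85 had the same sign, and the 44 called lower in oligodendrocytes -1.16 and -0.05 (23). Those called higher had the same sign for 54 of 73 in astrocytes (0.52 and 0.13), 37 of 38 in oligodendrocytes (0.96 and 0.68) and 115 of 135 in OPCs (0.47 and 0.20), and those called lower in OPCs for 91 of 129 (-0.88 and -0.29). Whether glia and neurons differ in this was not tested. In GR-Con astrocytes the neuron-enriched genes took 2.99% and 2.86% of UMIs in NR and 3.34% and 3.87% in DR, so that this share was higher in NR in GR-KO and higher in DR in GR-Con. In GR-Con the quasi-likelihood test called 417 genes in L2/3 and 421 in L5IT, where it called 0 in GR-KO, and 8 in L4. In GR-Con it called 0 in L6CT, L6IT, astrocytes and oligodendrocytes, where 2128, 1380, 647 and 895 genes had an unadjusted p under 0.05. A call in 1 genotype and not in the other does not show a difference between them.

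Tested directly, as the change in GR-KO minus the change in GR-Con, the quasi-likelihood test called 6 of 217689 gene tests over 15 types (0.00276%), where the likelihood ratio test called 394 and DESeq2 293. Nkain2, a membrane protein that binds the sodium pump, was in astrocytes at 172 and 167 CPM in NR GR-KO and 102 and 104 CPM in DR GR-KO, against 83.4 and 85.8 CPM in NR GR-Con and 182 and 189.8 CPM in DR GR-Con (difference of log2 fold changes -1.85, SE 0.134, adjusted p 0.00193). In OPCs Galntl6, Il1rapl2 and Kcnip4 did likewise. Galntl6 was at 99.3 and 119 and 71.2 and 70.8 CPM in NR and DR GR-KO and at 40.3 and 45.8 and 91.3 and 91.0 CPM in NR and DR GR-Con (-1.71, SE 0.197, adjusted p 0.00137). These 4 genes were neuron-enriched, and their levels went the way of the share of such UMIs in direction but not in size. In OPCs this share was 2.24% and 2.17% in NR and 2.35% and 2.67% in DR GR-Con. The part of neuronal RNA in these 4 differences was not tested.

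The other 2 differences lay in Pvalb cells. Gpc5 (chromosome 14, 115092215 to 116525179) was at 25.0 and 22.7 CPM in NR GR-KO and 40.6 and 52.8 CPM in DR GR-KO, and at 93.6 and 68.9 CPM in NR GR-Con and 45.5 and 42.9 CPM in DR GR-Con. It rose with dark rearing in GR-KO (0.97, adjusted p 0.0234) and fell in GR-Con (-0.89, adjusted p 0.0458), a difference of 1.85 (adjusted p 0.0381). Nacc2 (chromosome 2, 26055535 to 26123220), a transcriptional repressor, was at 29.8 and 28.2 and 47.5 and 50.5 CPM in NR and DR GR-KO and at 34.9 and 34.4 and 29.9 and 30.2 CPM in NR and DR GR-Con (difference 0.96, adjusted p 0.0414). By the quasi-likelihood test Nacc2 rose in GR-KO (0.75, adjusted p 0.0169) and was not called in GR-Con (-0.21, adjusted p 0.415). In both genes the order of NR and DR was opposite in the 2 genotypes, with no overlap within either. The part of RNA from other cell types in these 2 differences was not tested.

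**Figure D5:**
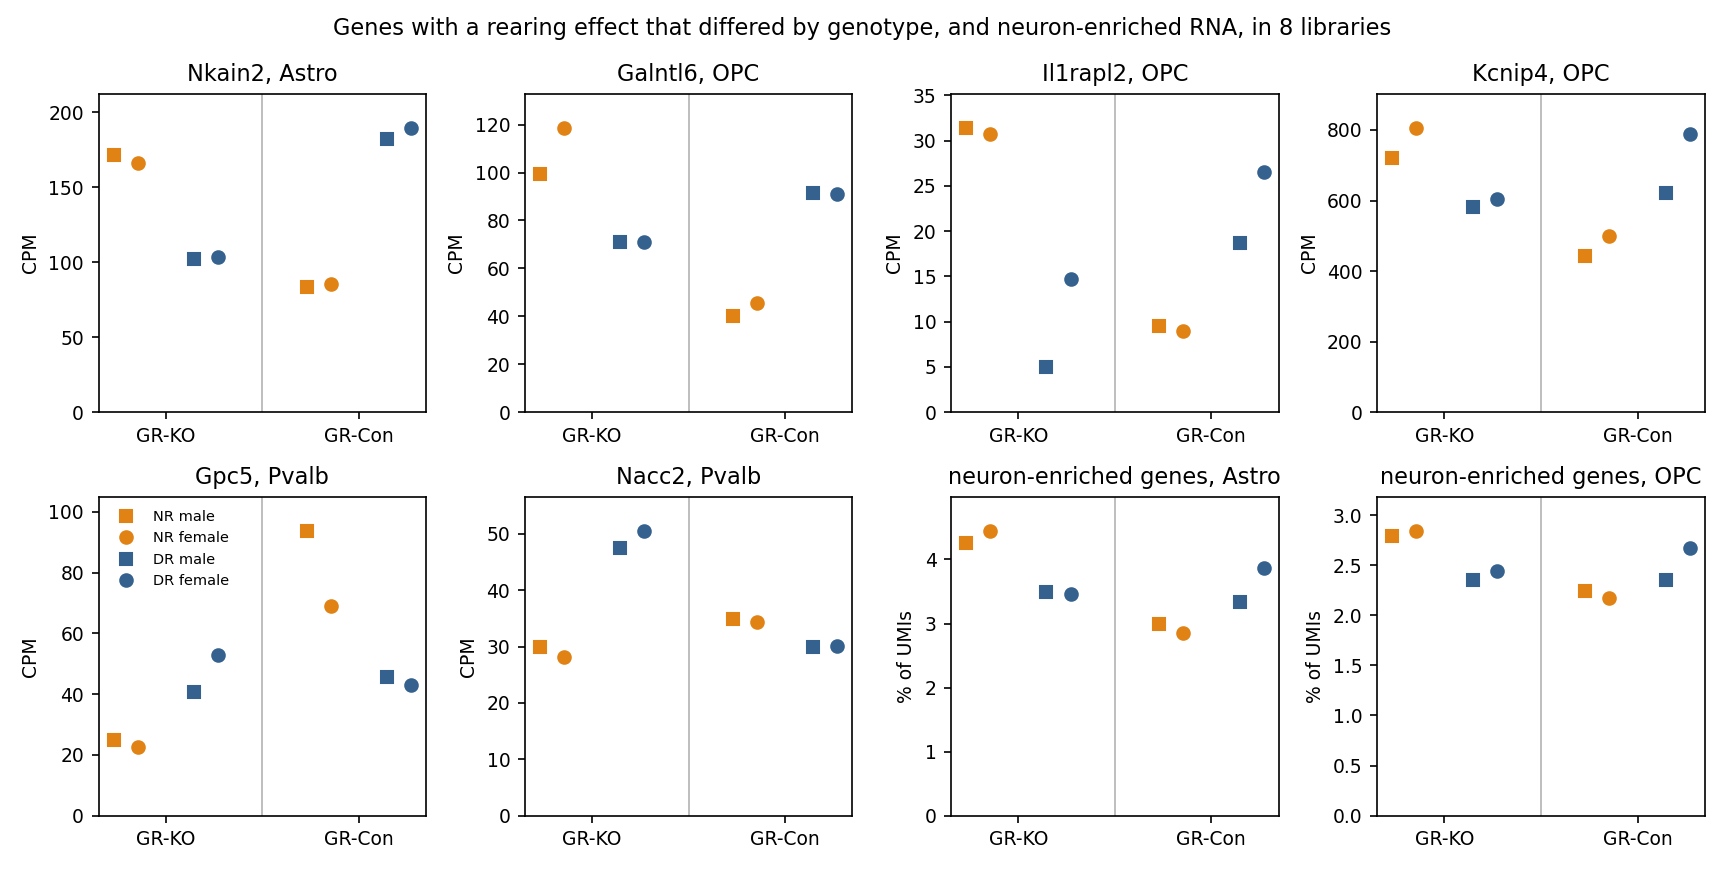
Level (CPM, scaled over all 8 libraries) of the 6 genes whose response to rearing differed between genotypes, and the percent of UMIs from neuron-enriched genes in astrocytes and OPCs, in each of the 8 libraries. Points are libraries by genotype and rearing. Nkain2 in astrocytes fell with dark rearing in GR-KO and was higher in DR in GR-Con, as was the percent of neuron-enriched UMIs (4.25 and 4.44 in NR GR-KO, 3.49 and 3.46 in DR GR-KO).

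Gm47283, on the Y chromosome of the annotation (90784738 to 90816464), was the single gene called in L5NP, Sst and Vip cells. Since its level was high in female libraries too, it was not read as a male gene. In L4 it was at 190.0 and 234 CPM in the NR libraries and 68.1 and 79.0 CPM in the DR libraries (-1.53), but in GR-Con astrocytes it was at 49.3 and 238 CPM in NR and 58.2 and 228 CPM in DR. In these GR-Con astrocytes its level thus differed between libraries in a way that did not follow rearing. Its GR-Con levels in L4 are not given here.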

How the data were processed

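Nuclei of V1 were profiled with the 10x Genomics 3′ v4 kit, from 8 samples in 4 groups of 2. Per the methods of the study, the authors processed reads with Cell Ranger 8.0.1 (mm10 with a custom annotation for the viral sequence) and Seurat 5.3.0, removed nuclei with few genes and predicted doublets, and named cell types after Louvain clustering. The matrix deposited by the authors holds raw UMI counts of 26711 features in 102330 nuclei. The deposited cell table gives UMI counts, the percent of mitochondrial UMIs, library, rearing, sex, genotype and cell type, which were used as given.

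Counts were summed per library and cell type. Types with at least 10 nuclei in each of the 4 GR-KO libraries entered edgeR's quasi-likelihood test (version 4.0.16, R 4.3.3) after filterByExpr and TMM scaling (glmQLFit, glmQLFTest, two-sided), with Benjamini-Hochberg adjustment within a type and a threshold of 0.05. An SE is the size of the log2 fold change over the root of its F value, and CPM are scaled by TMM factors over the 4 GR-KO libraries (over all 8 libraries where GR-Con is compared). Alternatives were glmLRT, DESeq2 1.42.0, other scaling, filters, covariates and samples. A minimum of 7024 UMIs per nucleus, the highest of the libraries' lowest values, was added after seeing the data. The scripts were tested on simulated counts. The cell table does not tie libraries to replicate numbers. Each sample is an animal per the labels, and p-values measure the spread between 2 animals of different sex. Library totals (168632129 to 280910168 UMIs in GR-KO) limit precision by counting error only.

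Named were called genes other than vector features, Xist, Tsix and genes of the Y chromosome: the 5 per direction called in the most excitatory types and up to 3 per direction called in at least 2 interneuron types; per type, those with the largest fold change, with the average log2 CPM not under 5 and no overlap between DR and NR (2 per direction, 5 in astrocytes, leaving out neuron-enriched genes in non-neuronal types), of which the text gives a part; genes of the interaction; and called members of 20 gene lists. In types with at most 1 call, genes called by both glmLRT and DESeq2 were named after their values were seen. They were ranked by fold change under the same limits on level and overlap. Tiam1, Sez6l, Malat1, Gm47283 and list members that were not called were also named after their values were seen. The members, lists and rules were chosen with earlier results of these data known. Some called genes are not reported here.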

Additional observations from a re-analysis of the deposited data

Results flagged for a closer look

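The change with dark rearing differed between GR-KO and GR-Con for 6 genes, by an edgeR quasi-likelihood test of the difference itself over all 8 libraries. Values are the log2 fold change in GR-KO minus that in GR-Con. Each kept its sign in all 14 alternatives run for it, which the choice of these genes by their call in the same libraries largely fixes. The number of alternatives in which it was called is given beside it. In astrocytes the value was -1.85 for Nkain2 (called in 10 of 14, from -1.88 to -1.82 when single libraries were left out). In OPCs it was -1.71 for Galntl6 (14 of 14, -1.84 to -1.57), -2.92 for Il1rapl2 (7 of 14, -3.90 to -2.35) and -0.95 for Kcnip4 (7 of 14, -1.11 to -0.77). Il1rapl2 in OPCs was at 31.4 and 30.7 CPM in NR GR-KO, 5.01 and 14.8 CPM in DR GR-KO, 9.51 and 8.95 CPM in NR GR-Con and 18.6 and 26.5 CPM in DR GR-Con, and Kcnip4 at 720.2 and 807, 580.3 and 605, 442 and 500.4 and 622 and 789 CPM in the same order. The part of neuronal RNA in these 4 was not tested. In Pvalb cells the value was 1.85 for Gpc5 (8 of 14, 1.61 to 2.05) and 0.96 for Nacc2 (5 of 14, 0.92 to 1.01). For these 2 genes NR and DR pairs were apart in both genotypes and in opposite order, although Nacc2 was not called in GR-Con (log2 fold change -0.21).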

How the results depend on the processing

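No paired analysis was possible because the deposited cell table does not tie libraries to replicate numbers, other than by sex, of which each group had 1 male and 1 female library and whose fit as a term is given below. Of 193 pairs of a named gene and a cell type, each kept its direction in every alternative that gave a value for it (2489 values, 0 reversed), which the rules that named them, a call and in part no overlap of the groups, largely fix, while calls were lost, most often in the fit over all 8 libraries (61), without the DR female (92) or the DR male library (90) and with the UMI minimum (25). Counts of calls depended on the method, and the cause was not tested. Against 324 calls in excitatory neuron types there were 5121 with glmLRT, 4730 with DESeq2, 696 with RLE scaling, 4554 with no filter on low counts, 4278 with sex as a term, 2043 in the fit over all 8 libraries, 735 with counts thinned to equal totals, and 0 to 7981 when leaving out a library. Against 73 in interneurons there were 598, 157, 1815, 812 and 131 with glmLRT, DESeq2, no filter, sex and all 8 libraries, and 96 to 2661 when leaving out a library. Against 259 in astrocytes there were 413, 908, 583 and 0 with glmLRT, no filter, sex and all 8 libraries, and 5 to 1220 when leaving out a library. Against 350 in oligodendrocytes and OPCs there were 752, 952 and 15 with glmLRT, sex and all 8 libraries, and 109 to 1649 when leaving out a library. Against 915 in vascular types there were 468 with DESeq2, 1461 with no filter and 751 to 1269 when leaving out a library. Microglia gave 1088 calls without the NR GR-KO male library. Against 6 differences between genotypes there were 394, 293, 1829, 21 and 24 with glmLRT, DESeq2, no filter, sex and the UMI minimum. Leaving out a library gave 3 (without the DR GR-KO male or the NR GR-Con male) to 1071 (without the DR GR-Con male), with 203 and 130 without the NR GR-KO female and male. The number of types whose share of nuclei differed was 0 to 4 when leaving out a library. VLMCs were not fitted with all 8 libraries, with the UMI minimum or with at least 50 nuclei. Scaling by RLE moved the median fold change of a type by at most 0.03 (log2). Depth is lower in both DR than in both NR GR-KO libraries, and no alternative separates the 2.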
